A study of Rattus norvegicus with 6 samples.

Results

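The 10 genes described here encode regulators of the integrated stress response around the transcription factor ATF4: Atf4, Atf5, Ddit3, Ddit4, Trib3, Chac1, Sesn2, Cebpb, Ppp1r15a and Nupr1. They were chosen by symbol, and all 10 were found, each on 1 row, among the 16551 genes of the deposited mRNA table. RNA was sequenced from primary cells of rat (Rattus norvegicus) dorsal root ganglia, which hold the cell bodies of sensory neurons together with glia and connective tissue cells. The 3 samples titled control1 to control3 and the 3 titled DM1 to DM3 were all kept for 48 h, the DM samples being taken here as those in high-glucose medium at 45 mmol/L, a link the labels do not spell out. The growth protocol also mentions fixation with paraformaldehyde, and whether that applied to the sequenced cells is not said. Rat strain, sex and age, the glucose level of the control medium and any control for osmolarity were not given in the sources used here. Since the protocol speaks of 3 duplicates per group and names no separate cultures or animals, the spread behind each p-value may be technical.

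The integrated stress response starts when one of several kinases phosphorylates the translation initiation factor eIF2, which slows protein synthesis in general while the mRNA of Atf4 is translated more. ATF4 protein then switches on genes for amino acid supply, redox balance and stress signalling, and its partners and targets include further transcription factors, brakes on growth signalling, and a feedback arm that removes the phosphate from eIF2. In sensory ganglia this pathway is known for its part in the response of neurons and glia to injury and metabolic stress. Much of its control is by translation and phosphorylation, which RNA levels do not measure.

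The samples held between 28780612 and 33108451 reads in the genes of the table, and 5 of the 10 genes had over 1000 reads in every sample. The other 5, Ddit3, Ddit4, Trib3, Cebpb and Nupr1, had fewer in at least some samples, down to 184 for Nupr1 in control 1, so their counting error was larger. Levels are given as deposited, in log2 CPM (log2 of reads scaled to library size), and each change as the log2 fold change, high glucose minus control, with its standard error (SE) from limma over 3 samples per group. Levels are compared between samples and not between genes, since no transcript lengths enter them. Fibroblast markers summed to between 56774 and 58918 CPM in control and between 52144 and 54729 in high glucose, sums that hold the abundant collagens. Of the 7 measured fibroblast markers 4 rose, Lum, Dcn, Pdgfra and Col3a1, and 3 fell, Col1a1, Postn and Thy1 (median 0.28 on the log2 scale). The 15 sensory neuron markers summed to only 92.5 to 96.7 CPM in control and 60.2 to 61.4 CPM in high glucose. None of the neuronal markers rose and 9 of 15 fell. Some of these falls rest on very few reads, such as Tac1, with 7 in control and 0 in high glucose, and Snap25, with 27 and 2. All 11 Schwann cell markers fell, from sums of 1020 to 1061 CPM in control to 599 to 644 CPM. Of 9 mural cell markers 6 fell and 2 rose, and their sums went from 14795 to 14942 CPM in control to 8337 to 8407 CPM. Of 5 satellite glia markers 2 fell and 1 rose (sums of 89.2 to 91.5 CPM in control, 116 to 125 CPM in high glucose). The one that rose was Glul (0.90 ± 0.04 on the log2 scale). Cdh19 and Fabp7 fell (-0.92 ± 0.05 and -1.20 ± 0.29), and Apoe and Kcnj10 did not pass. Of 8 macrophage markers 3 fell and 2 rose (21.7 to 22.5 CPM and 27.6 to 28.8 CPM), and of 6 endothelial markers 1 fell and 5 did not pass. None of 8 lymphocyte and granulocyte markers was in the table. In such bulk samples fewer cells of a type and less RNA per cell cannot be told apart, and the part of these shifts in the results below was not tested.

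Of the 10 genes, 9 fell in high glucose and 1 rose, each past an adjusted p of 0.05 in limma. Over all genes tested, 50.5% passed, 25.5% lower and 24.9% higher. The median log2 fold change of the 10 was -0.79, where that of all genes was 0.012. The falls ran from 4.22-fold for Trib3 to 1.27-fold for Ddit4, and the gene that rose was Nupr1, 1.74-fold. The control and high-glucose samples did not overlap in any of the 10, as in 57.6% of all genes. Scaling to plain read totals, without the authors' scaling factors, moved the median of all genes to 0.125 and every value below upward by about the same shift. The split of called genes was then 2847 lower and 5932 higher, against 4228 and 4126 on the deposited values. On plain totals 8 of the 10 fell and Nupr1 rose.

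**Figure D1:**
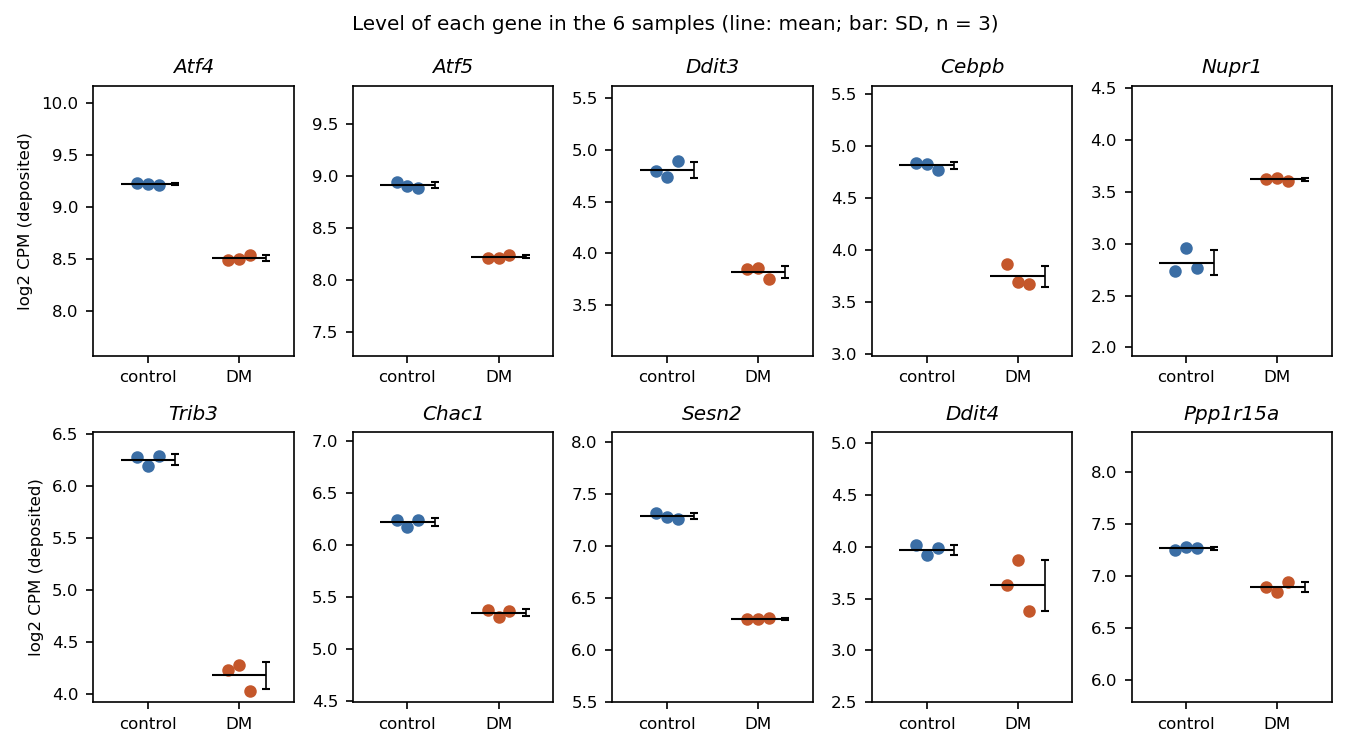
Deposited log2 CPM of each of the 10 genes (vertical axis, each panel spanning the same log2 range around its own mean) in the 3 control and 3 DM samples; points are samples, the line is the mean and the bar the SD. Nupr1 is the panel in which the DM samples are higher, and Ddit4 is the panel with the widest DM samples, from 3.38 to 3.87.

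Among the transcription factors, Atf4 (ENSRNOG00000017801), the effector of the response, stood at 9.22, 9.22 and 9.21 log2 CPM in control 1 to 3 and at 8.49, 8.49 and 8.54 in high glucose 1 to 3. The 3 control samples were almost equal and all lay above the high-glucose samples. Its log2 fold change was -0.71 ± 0.02 (SE, n = 3 per group), a 1.64-fold fall (limma, adjusted p = 4.03e-12). Atf5 (ENSRNOG00000020060), a close relative whose mRNA is under the same kind of translational control, had levels of 8.94, 8.90 and 8.89 in control and 8.21, 8.21 and 8.24 in high glucose. It fell by nearly the same amount, with a log2 fold change of -0.69 ± 0.02 (limma, adjusted p = 1.11e-11).

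Ddit3 (ENSRNOG00000006789) encodes CHOP, the ATF4-induced factor known for promoting cell death under lasting stress. It had 4.80, 4.73 and 4.89 log2 CPM in control and 3.85, 3.86 and 3.76 in high glucose, so it fell 1.98-fold (-0.98 ± 0.06, limma adjusted p = 8.12e-09). Cebpb (ENSRNOG00000057347), a C/EBP factor that pairs with ATF4 and CHOP, went from 4.84, 4.83 and 4.77 to 3.87, 3.70 and 3.68. High glucose 1 was the highest of its group, still below every control sample. Its log2 fold change was -1.07 ± 0.06 (limma, adjusted p = 6.07e-09).

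Nupr1 (ENSRNOG00000019206), a small stress-induced chromatin protein and a known ATF4 target, went the other way. Its levels were 2.73, 2.96 and 2.76 log2 CPM in control, with control 2 the highest, and 3.62, 3.63 and 3.60 in high glucose, where the samples were nearly equal. It rose by 0.80 ± 0.08 (limma, adjusted p = 2.33e-06), with 624 reads in control and 1171 in the DM samples as a whole, the fewest of the 10 genes in both groups. Of the 16551 genes it ranked 1692 from the top by log2 fold change, and 215 from the top of the 9218 genes with a mean level of at least 3 log2 CPM.

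Trib3 (ENSRNOG00000007319), a pseudokinase induced by ATF4 and CHOP that in turn restrains them and the kinase AKT, changed most. It had 6.28, 6.20 and 6.29 log2 CPM in control and 4.23, 4.28 and 4.03 in high glucose, a gap far wider than the spread of either group, with high glucose 3 the lowest sample. In reads this was 2154, 2266 and 2312 against 562, 607 and 556. The log2 fold change was -2.08 ± 0.06 (limma, adjusted p = 5.32e-12). It ranked 121 from the lowest of all 16551 genes, and 9 from the lowest of the 9218 genes with a mean level of at least 3 log2 CPM, where Cebpb ranked 125, Sesn2 150, Ddit3 158, Atf4 343 and Ddit4 1306.

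Chac1 (ENSRNOG00000014387) encodes a gamma-glutamylcyclotransferase that breaks down glutathione. It fell from 6.24, 6.17 and 6.24 log2 CPM to 5.38, 5.31 and 5.37, a 1.83-fold fall (-0.87 ± 0.04, limma adjusted p = 2.13e-10). Sesn2 (ENSRNOG00000042785), a leucine-binding sestrin that holds back the growth kinase complex TORC1, fell from 7.32, 7.28 and 7.27 to 6.29, 6.29 and 6.31. Its fall was 1.99-fold, with the high-glucose samples again nearly equal (-0.99 ± 0.03, limma adjusted p = 3.08e-12).

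The smallest changes were in a second brake on TORC1 and in the feedback gene. Ddit4 (ENSRNOG00000057078), which encodes REDD1, had 4.01, 3.92 and 3.98 log2 CPM in control and 3.63, 3.87 and 3.38 in high glucose. High glucose 2 lay just below the lowest control, and the SD of 0.24 in high glucose was the largest of any of the 10 genes in either group. Its log2 fold change was -0.35 ± 0.10 (limma, adjusted p = 0.0104). The change was -0.22 without high glucose 3 (adjusted p = 0.0427), and it did not pass on plain read totals (-0.23, adjusted p = 0.0713) or with one variance prior for all genes (adjusted p = 0.0924), within a range of 0.000401 to 0.0924 over the alternatives. Ppp1r15a (ENSRNOG00000020938), which encodes GADD34, the stress-induced subunit that directs a phosphatase to eIF2, fell from 7.25, 7.28 and 7.27 to 6.90, 6.85 and 6.94 (-0.37 ± 0.03, limma adjusted p = 1.02e-07).

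**Figure D2:**
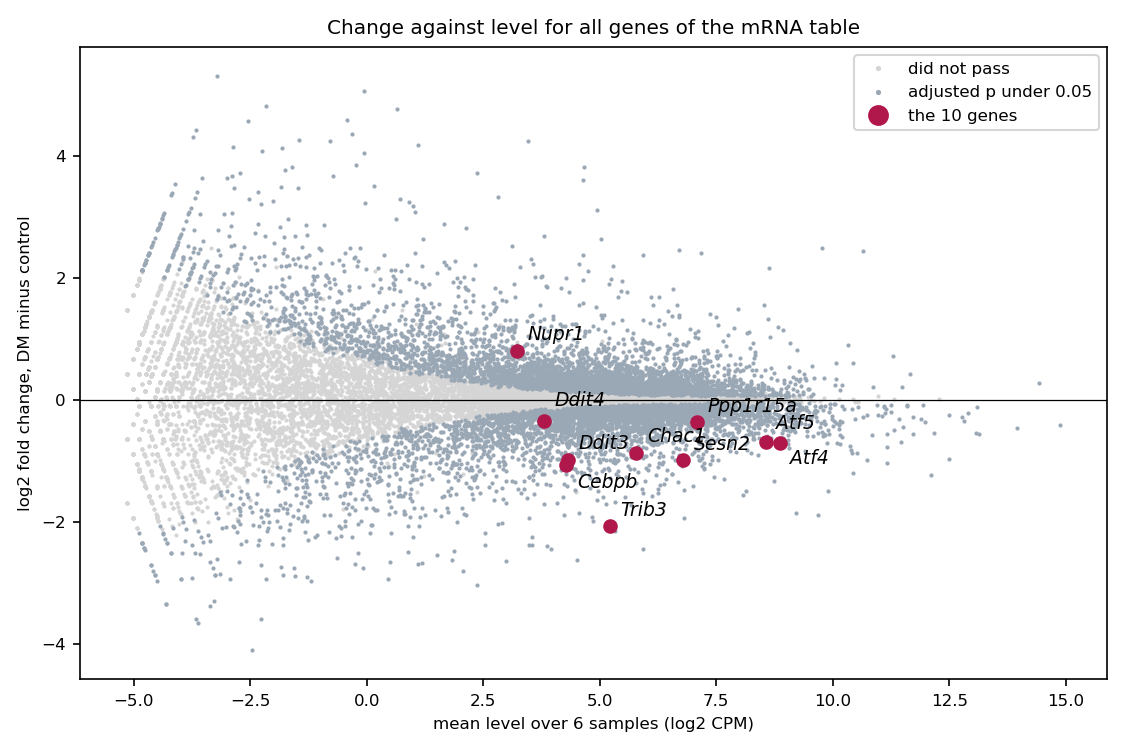
Log2 fold change, DM minus control (vertical axis), against the mean level over the 6 samples in log2 CPM (horizontal axis) for the 16551 genes; grey points did not pass, darker points passed an adjusted p of 0.05, and red points are the 10 genes. Trib3 at -2.08 lies near the lower edge of genes of its level, and Nupr1 is the red point above 0.

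RefSeq promoter windows (build GRCr8) were at hand for all 10 genes and were searched over the 250 bases before the annotated start. The letters TGATGNAA, the common form of the C/EBP-ATF response element through which ATF4 acts, were sought on both strands, as was the cyclic AMP response element TGACGTCA. The first stood in the windows of Trib3, Chac1 and Nupr1, 3 of 10, against 3.27% of all 27457 windows and 1.94% of the 11620 tested genes that had one. These windows are printed because they belong to the gene that fell most, a gene that fell in the middle of the range, and the gene that rose. Each runs 5′ to 3′ on the gene's strand, and the capitals mark the match, which in all 3 reads on the opposite strand. The coordinates are chr3:161275534-161275783 (minus strand) for Trib3, chr3:126795881-126796130 (plus strand) for Chac1 and chr1:190645902-190646151 (minus strand) for Nupr1.
Trib3: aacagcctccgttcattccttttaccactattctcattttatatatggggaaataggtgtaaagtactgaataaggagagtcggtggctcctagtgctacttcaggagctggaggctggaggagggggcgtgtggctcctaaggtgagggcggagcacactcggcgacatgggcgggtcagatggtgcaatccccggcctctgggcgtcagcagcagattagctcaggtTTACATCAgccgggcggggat
Chac1: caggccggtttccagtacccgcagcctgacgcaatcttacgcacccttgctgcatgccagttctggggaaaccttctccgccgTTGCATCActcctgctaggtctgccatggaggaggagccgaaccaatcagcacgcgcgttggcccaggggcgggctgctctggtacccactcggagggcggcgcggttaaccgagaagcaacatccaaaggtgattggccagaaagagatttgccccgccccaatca
Nupr1: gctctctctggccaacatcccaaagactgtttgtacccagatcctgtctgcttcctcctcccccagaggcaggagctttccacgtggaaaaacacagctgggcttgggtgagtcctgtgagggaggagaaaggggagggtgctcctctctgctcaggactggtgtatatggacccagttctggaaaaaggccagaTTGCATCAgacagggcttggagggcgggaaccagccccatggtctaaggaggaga
The match began 21 bases before the start in Trib3, 167 in Chac1 and 55 in Nupr1. Chac1 and Nupr1 held the same letters (TTGCATCA as printed), although one fell and the other rose, and Trib3 held TTACATCA. TGACGTCA stood in the window of Ppp1r15a alone among the 10, 66 bases before the start, against 1.70% of all windows and 2.68% of those of the tested genes. Among the genes that fell, 1.76% of 3182 windows held TGATGNAA, and among those that rose 1.65% of 3094. A match describes the letters in the window and is not a measured binding site.

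The ratio of each gene to Atf4 within a sample does not depend on scaling by a common factor, and it shows which genes moved by more or less than Atf4. Of the other 9 genes, 5 fell relative to Atf4, 3 rose and 1 did not pass. Among all genes 79.1% passed this test, 3.13% lower and 75.9% higher, since Atf4 itself had fallen. Trib3 moved from log2 ratios of -2.95, -3.02 and -2.93 in control to -4.26, -4.22 and -4.51, a change of -1.36 ± 0.06 (limma, adjusted p = 3.12e-11). Cebpb, Sesn2 and Ddit3 moved by -0.36 ± 0.06, -0.28 ± 0.03 and -0.27 ± 0.06 relative to Atf4, and Chac1 by -0.16 ± 0.04 (-0.26 after quantile normalization). Nupr1 rose by 1.51 ± 0.09 relative to Atf4 and Ppp1r15a by 0.34 ± 0.03. Ddit4 rose by 0.37 ± 0.10 in this ratio (limma, adjusted p = 0.00464). That change was 0.24 without high glucose 2, and it did not pass after quantile normalization (0.23, adjusted p = 0.0598) or with one variance prior (adjusted p = 0.0651), in a range of 0.000109 to 0.0651. For Atf5 the ratio changed by 0.02, with a 95% interval of -0.02 to 0.07, and the groups overlapped (limma, adjusted p = 0.365).

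**Figure D3:**
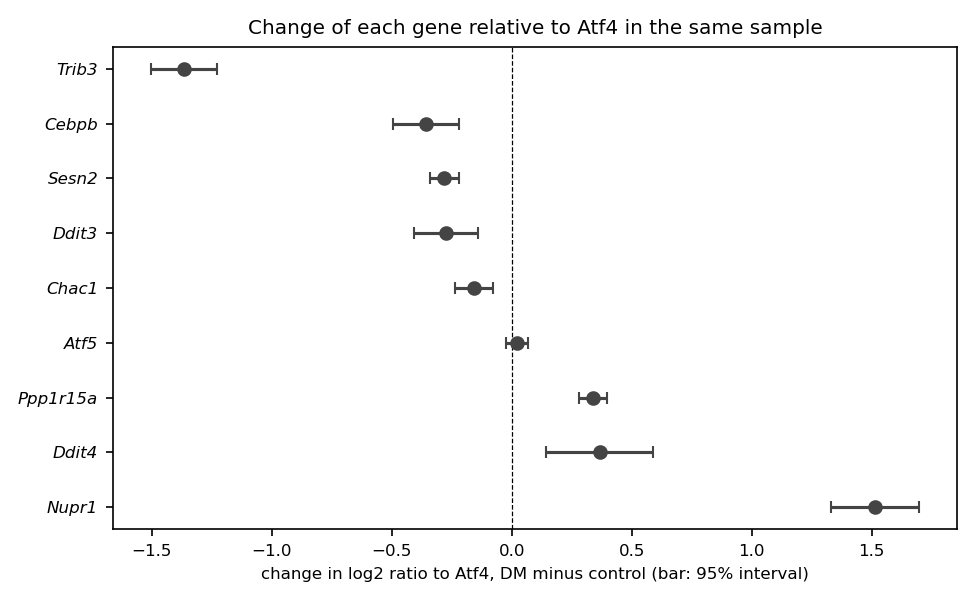
Change of the log2 ratio of each gene to Atf4 in the same sample, DM minus control (horizontal axis), with its 95% interval from limma; the dashed line is no change relative to Atf4. Trib3 at -1.36 and Nupr1 at 1.51 lie farthest from the line, and the interval of Atf5 spans it.

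Relatives of these genes moved both ways. Of 14 measured relatives, 6 fell and 6 rose (median -0.04), where 25.5% of all genes fell and 24.9% rose. Among those that fell, Cebpa and Atf6 had values of -0.70 ± 0.08 and -0.31 ± 0.03. Sesn2 fell, whereas the other sestrins rose. Sesn3, whose protein shares the TORC1-restraining role, went from 6.83, 6.82 and 6.81 log2 CPM in control to 8.20, 8.16 and 8.16 in high glucose, a 2.55-fold rise (1.35 ± 0.02, limma adjusted p = 4.62e-14). Sesn1, best known as a p53 target, went from 3.60, 3.73 and 3.53 to 4.67, 4.53 and 4.58, a 1.97-fold rise (0.97 ± 0.07, limma adjusted p = 3.51e-08). In both, every high-glucose sample lay above every control sample. Ddit4l, which encodes REDD2, the relative of REDD1, was scarce in control, with 13, 4 and 5 reads, against 111, 134 and 126 in high glucose. Its log2 fold change was 4.04 ± 0.38 (limma, adjusted p = 9.06e-07), opposite to that of Ddit4.

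Trib1, a tribbles pseudokinase that targets C/EBP factors for degradation, fell with Trib3, from 4.98, 5.00 and 5.04 log2 CPM to 4.12, 4.12 and 4.09 (-0.90 ± 0.05, limma adjusted p = 2.13e-09). Trib2 rose by only 0.15 ± 0.05 (limma, adjusted p = 0.0134). It did not pass with one variance prior (adjusted p = 0.0767) or without high glucose 3 (0.0508) or control 3 (0.0636), and its value was 0.27 on plain read totals, in a range of adjusted p from 0.000195 to 0.0767. Chac2, the constitutive relative of Chac1, rose 1.40-fold (0.48 ± 0.11, limma adjusted p = 0.00211). Ppp1r15b, the constitutive counterpart of Ppp1r15a, had a value of -0.11 ± 0.02 (limma, adjusted p = 0.00132), which was 0.00 on plain read totals (adjusted p = 0.996, the top of its range, which began at 0.001). Nupr2 was scarce (83 reads in control, 60 in DM) and did not pass at -0.54 ± 0.28 (limma, adjusted p = 0.121).

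**Figure D4:**
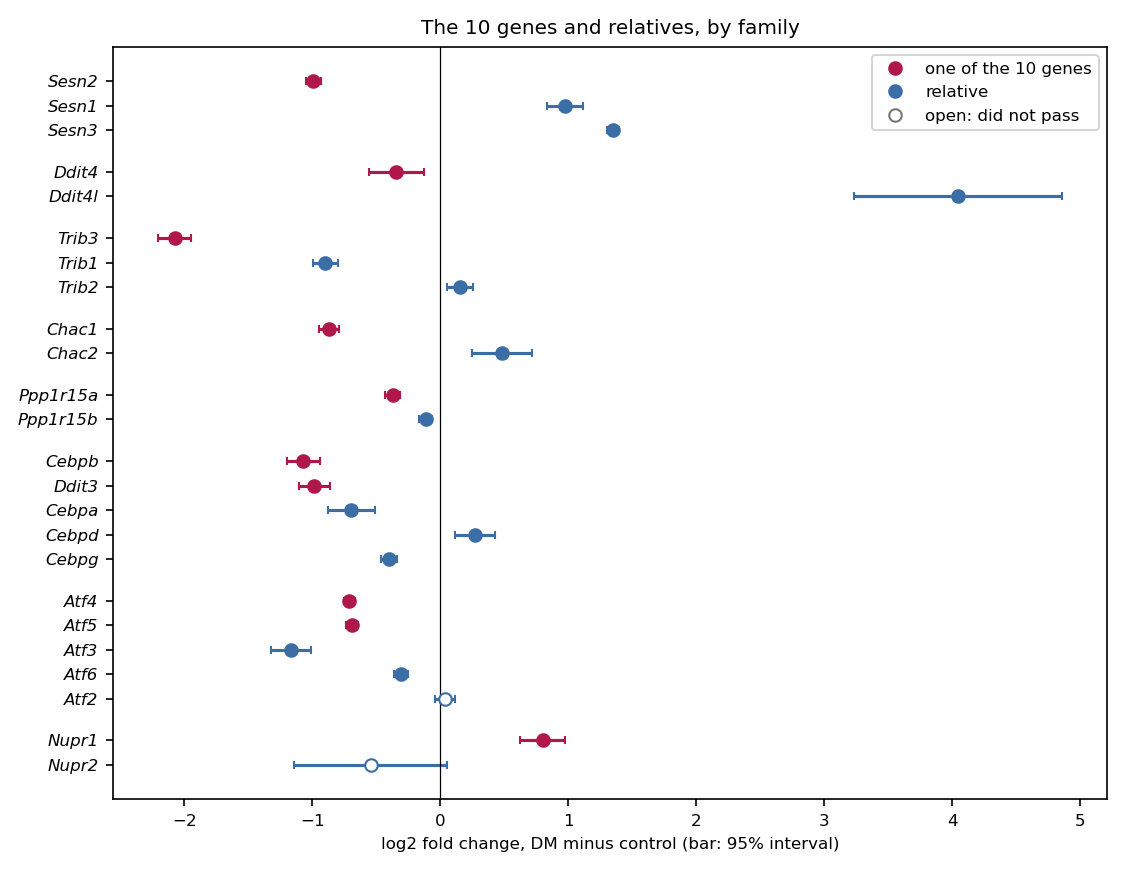
Log2 fold change, DM minus control (horizontal axis), with 95% intervals from limma for the 10 genes (red) and their relatives (blue), grouped by family; open points did not pass. Sesn1, Sesn3 and Ddit4l lie to the right of 0 while Sesn2 and Ddit4 lie to the left.

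The list of bZIP factors that pair with ATF4 or CHOP or are related to them also held Cebpz, which is not one. Of the 30 measured genes of this list, 14 fell and 7 rose (median -0.05). The shares over all genes were 25.5% lower and 24.9% higher. Batf and Batf3 were scarce, with 38 and 13 reads in control and 48 and 19 in high glucose, and did not pass. On plain read totals 8 of the 30 fell and 12 rose. The count that rose was 1 with one variance prior, 3 without high glucose 3 or control 2, and 4 without control 1. Atf3, a stress factor induced by ATF4 and an injury marker of sensory neurons, went from 4.27, 4.07 and 4.23 log2 CPM to 3.08, 2.95 and 3.03 (-1.17 ± 0.07, limma adjusted p = 1.89e-08), so it fell by more than Atf4. Cebpg, the partner with which ATF4 binds many amino acid genes, fell by 0.40 ± 0.03 on the log2 scale, and Nfe2l2, the antioxidant factor NRF2, by 0.45 ± 0.03. Cebpd rose by 0.27 ± 0.07 and Fosl2 by 0.12 ± 0.04. Cebpd did not pass with one variance prior (adjusted p = 0.051, range 0.000454 to 0.051). Fosl2 did not pass with one variance prior (0.0593) or without high glucose 3 (0.0549) or control 3 (0.0624), and its value was 0.24 on plain read totals, in a range of adjusted p from 7.81e-05 to 0.0624.

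Among genes around eIF2 the changes were mixed. Of 21 measured genes in this list, 10 fell and 6 rose (median -0.06), and 5 fell on plain read totals. By comparison, 25.5% of all genes fell and 24.9% rose. The list holds eIF2 kinases, eIF2 and eIF2B subunits and phosphatase cofactors, with Ppp1ca, Ppp1cb, Ppp1cc, Eif2a, Eif2d, Dnajc3, Impact and Nck1. Among the eIF2 kinases, Eif2ak3, which encodes the endoplasmic reticulum sensor PERK, rose from 5.46, 5.51 and 5.50 log2 CPM to 5.85, 5.81 and 5.91 (0.37 ± 0.04, limma adjusted p = 1.89e-06). Eif2ak2, the double-stranded RNA sensor PKR, rose by 0.57 ± 0.04 and Eif2ak4, the amino acid sensor GCN2, by 0.19 ± 0.03. Eif2ak1, the haem-regulated kinase, did not pass (-0.01 ± 0.04, limma adjusted p = 0.838). The levels of 3 of the 4 kinase genes thus rose where that of Atf4 fell. Eif2b3 and Eif2b4, subunits of the exchange factor that recharges eIF2, had values of -0.59 ± 0.04 and 0.38 ± 0.06. Eif2s2, the beta subunit of eIF2, fell by 0.40 ± 0.03 on the log2 scale, and Eif2a, a separate initiation factor, by 0.46 ± 0.04.

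Of 50 other measured genes known as targets of ATF4 or CHOP, 35 fell and 7 rose, against 25.5% and 24.9% of all genes. The median log2 fold change was -0.49, and 8 genes did not pass. Those that fell with the smallest p-values were Slc7a5, Slc1a5 and Vegfa. Slc7a5, which encodes the large neutral amino acid transporter LAT1, went from 8.33, 8.32 and 8.27 log2 CPM to 6.97, 7.03 and 7.03 (-1.30 ± 0.03, limma adjusted p = 2.16e-13). Slc1a5, the glutamine transporter ASCT2, and Vegfa, the endothelial growth factor, were 2.57-fold and 2.63-fold lower. Those that rose with the smallest p-values were Slc38a2, the amino acid transporter SNAT2 (0.55 ± 0.02), Txnip, a thioredoxin-binding protein that glucose also induces (0.57 ± 0.03), and Bcl2l11, the pro-apoptotic protein BIM (0.76 ± 0.06).

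A few well-known targets were singled out after their values were seen. Psat1, of serine synthesis, fell only 1.13-fold, from 7.03, 7.05 and 7.10 log2 CPM to 6.90, 6.90 and 6.85 (-0.17 ± 0.03). Its neighbour in that pathway, Phgdh, fell 2.00-fold, from 7.09, 7.05 and 7.17 to 6.12, 6.09 and 6.11. Gdf15, a stress hormone, had 72, 99 and 96 reads in control and 66, 88 and 89 in high glucose, and did not pass (limma, adjusted p = 0.221). Fgf21, another stress hormone, had 6 reads in control and 1 in high glucose, too few to compare. Aldh18a1, of proline synthesis, had 11, 23 and 28 reads in control and 24, 21 and 197 in high glucose, with high glucose 3 far above the rest, and its value of 1.14 ± 0.63 did not pass (limma, adjusted p = 0.153).

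Of 30 listed targets with a promoter window, 5 held TGATGNAA, or 16.7%. Slc7a1, Slc1a4 and Pycr1 fell by 0.65, 0.56 and 0.54 on the log2 scale, and Fgf21 and Herpud1 did not pass. Of the 30, 18 fell, and the share with the letters was the same among them (3 of 18, 16.7%). Another 5 rose, and 0 of these held the letters.

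**Figure D5:**
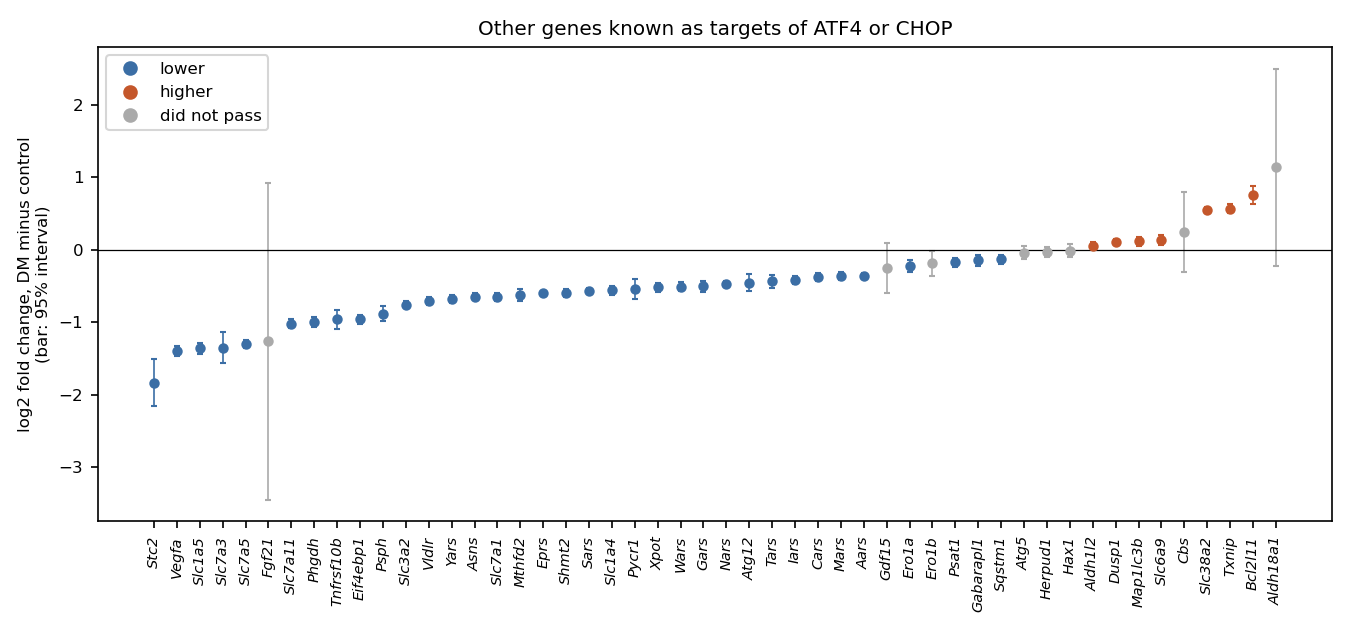
Log2 fold change, DM minus control (vertical axis), with 95% intervals from limma for 50 other genes known as targets of ATF4 or CHOP, in order of their values; blue points fell, orange points rose and grey points did not pass. Blue points make up 35 of the 50, and the widest interval is that of the scarce Fgf21.

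Genes of the other arms of the unfolded protein response, run by IRE1 and ATF6, were mostly lower: 18 of 24 fell and 3 rose (median -0.27). Among all genes 25.5% were lower and 24.9% higher. The chaperones Hspa5 (BiP), Hsp90b1 and Canx had log2 fold changes of -0.57 ± 0.02, -0.44 ± 0.02 and -0.36 ± 0.02, which were -0.32, -0.18 and -0.05 after quantile normalization. Edem2, of the degradation pathway, rose by 0.53 ± 0.05. Hspa13 and Derl1 rose by 0.20 ± 0.03 and 0.15 ± 0.04, or by 0.32 and 0.26 on plain read totals. Whether this list differed from the ATF4 targets was not tested.

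ATF5 is also known as a factor of the mitochondrial unfolded protein response. Of 17 measured genes of mitochondrial stress, 8 fell and 3 rose (median -0.13), and 5 rose on plain read totals. On the deposited values 25.5% of all genes fell and 24.9% rose. Yme1l1, which did not pass, was scarce, with 15 reads in each group. Lonp1, a matrix protease that ATF4 is known to induce, went from 7.90, 7.89 and 7.91 log2 CPM to 6.85, 6.84 and 6.84, a 2.08-fold fall (-1.06 ± 0.02, limma adjusted p = 2.96e-13). The chaperones Hspa9 and Hspd1 had values of -0.65 ± 0.03 and -0.34 ± 0.03 (-0.22 for Hspd1 on plain read totals). Pink1, a kinase of damaged mitochondria, rose by 0.66 ± 0.04, Oma1, the protease that relays mitochondrial stress to the eIF2 kinases, by 0.40 ± 0.09, and Clpx by 0.22 ± 0.04 (0.34 on plain read totals).

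Around the TORC1 brakes Sesn2 and Ddit4, 8 of 28 measured regulators fell and 10 rose (median 0.02). Over all genes 25.5% fell and 24.9% rose. On plain read totals 3 of the 28 fell and 16 rose. Beside Sesn1 and Sesn3, Tsc1, a subunit of the complex that restrains TORC1, rose by 0.44 ± 0.03. Eif4ebp1, a translation repressor downstream of TORC1 and itself an ATF4 target, fell 1.95-fold (-0.96 ± 0.03, limma adjusted p = 1.07e-11), and Eif4ebp2 fell by 0.52 ± 0.05 on the log2 scale. Prkaa2, a catalytic subunit of the energy sensor AMPK, fell 2.96-fold, on 521 reads in control and 190 in high glucose. Prkaa1, the other catalytic subunit, had more reads (6655 in control and 8529 in high glucose). It rose by 0.24 ± 0.03 on the log2 scale (limma, adjusted p = 5.54e-05).

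Around Chac1, 3 of 14 measured genes of glutathione synthesis and breakdown fell and 2 rose (median -0.04). For all genes the shares were 25.5% and 24.9%. Of those that did not pass, Gpx4, Dpep1 and Ggt1 were scarce, with 8, 6 and 38 reads in control and 14, 16 and 37 in high glucose. Slc7a11, the cystine importer that supplies glutathione synthesis and an ATF4 target, went from 6.87, 6.85 and 6.89 log2 CPM to 5.81, 5.84 and 5.90 (-1.02 ± 0.03, limma adjusted p = 1.07e-11). Gclc, the catalytic subunit of the first synthesis step, had a value of -0.30 ± 0.03 (-0.19 on plain read totals). Gsr, glutathione reductase, had one of -0.21 ± 0.04 (limma, adjusted p = 0.00142), which did not pass on plain read totals (-0.09, adjusted p = 0.0981, range 0.00115 to 0.0981). Chac2 and Ggt5, the latter a gamma-glutamyl enzyme of the cell surface, were the genes of this list that rose (0.40 ± 0.10 for Ggt5).

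The genes whose levels over the 6 samples were most like those of Atf4 were, among the 9217 others with a mean of at least 3 log2 CPM, Edn1, Aldoa, Capn2, Lamb1 and Sdc3, with Pearson correlations of 0.9998 to 0.9999. Their log2 fold changes ran from -0.25 for Capn2 to -2.41 for Edn1. As a description, 820 of these genes had a correlation above 0.99 with Atf4. The 6 samples fall into the 2 groups and share libraries across genes, so the correlation mostly records the group difference. Among the 10 genes the correlations with Atf4 were 0.999 for Atf5 and Sesn2, 0.997 for Chac1, 0.989 to 0.993 for Trib3, Ppp1r15a, Ddit3 and Cebpb, 0.745 for Ddit4 and -0.984 for Nupr1.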

How the data were processed

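Expression was measured by RNA sequencing in 3 control and 3 DM samples. The authors deposited log2 values per gene and sample, voom-normalized per the file names. The submitters' processing notes name the build Rnor_6.0 and the tools featureCounts 1.6.0, HISAT2 2.1.0 and fastp 0.19.4, without roles or settings; annotation version and counting strand were not given in the sources used here, so reads of overlapping genes cannot be told apart. The lncRNA table, scaled apart, was not used here. Reads were worked back from the log2 values: 100% came within 0.01 of a whole number. Scaling factors were 0.959 to 0.964 in control and 1.03 to 1.05 in DM, so they did not overlap between groups. Every gene had reads in at least 3 samples.

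Genes were tested on the deposited log2 values with limma 3.58.1 in R 4.3.3 (group term, mean-variance trend, two-sided, Benjamini-Hochberg adjustment over all 16551 genes, threshold 0.05), and likewise on ratios to Atf4. A symbol on several rows took the row of highest mean. The genes and lists were chosen with earlier results of these data known. Some genes stand in more than 1 list, among them Atf6, Xbp1, Dnajc3, Eif4ebp1, Slc7a11, Sesn1 and Sesn3, so the list counts are not independent. Named were the 10 genes, up to 3 falling and 3 rising genes of smallest p per list, and the 5 genes most like Atf4. Exceptions were singled out after their values were seen. They were eIF2 kinases and relatives outside that rule, Prkaa1, list genes given as scarce, and the targets said to be so in the text. One gene that the rule names is not reported here. Alternatives covered scaling, the 0.5 read that voom adds, low-value filters, variance prior, weights, pairing and single samples. Figures used matplotlib 3.10.9.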

Additional observations from a re-analysis of the deposited data

How the results depend on the processing

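The counts of 9 genes lower and 1 higher among the 10 held in each fit that left out a sample, after quantile normalization, with 2 reads added, under both low-value filters, with voom weights and with a replicate block. They were 8 and 1 on plain read totals and with one variance prior, Ddit4 being the gene lost. Relative to Atf4, 5 genes fell under every alternative run, and the number that rose was 3, or 2 after quantile normalization and with one variance prior. On plain read totals the number that fell was 5 for the eIF2 list, 8 for the bZIP list and 3 for the TORC1 list. The number that rose was 12 for the bZIP list, 16 for the TORC1 list, and 5 for both the IRE1 and ATF6 list and the mitochondrial list. These fits differ from the main one by the scaling factor alone. The bZIP count that rose was 1 with one variance prior and 3 to 6 with a sample left out, and the cause was not tested. Ppp1r15b had a value of 0.00 on plain read totals. Over all genes, leaving out a sample gave 3839 to 4031 genes lower and 3607 to 3878 higher. Same-numbered samples did not deviate together (correlations of -0.0921, -0.0433 and 0.0255), so the numbers were not treated as pairs. With a replicate block 4084 genes were lower and 3968 higher, and no call among the 10 was lost. Depth limits the scarce genes, such as Ddit4l, Fgf21 and Nupr2, and groups of 3 were too small for an outlier test.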
